A study of Mus musculus with 20 samples.

Results

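The mitochondrial solute carriers were taken as every gene whose probe set the array's annotation assigns to 1 gene with a symbol starting Slc25a, together with the uncoupling proteins Ucp1, Ucp2 and Ucp3. A probe set is a group of short probes on an Affymetrix array that reads 1 transcript region. The rule found 46 of the 18193 genes named on the array, through 96 probe sets, and each gene was represented by the probe set of highest mean level across the 20 arrays. Of the 46, 37 had a mean at or above 6.505, the median of all probe sets, and entered the tests among 11728 genes. The other 9 lay below that level: Slc25a18, Slc25a24, Slc25a27, Slc25a31, Slc25a35, Slc25a40, Slc25a41, Slc25a54 and Ucp1. Ucp2, Slc25a21, Slc25a43 and Slc25a52, family members that were also looked for, had no probe set of their own in the annotation and were not used here.

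Liver RNA came from 20 male mice of the inbred strain C57BL/6J, 8 weeks old, each measured on 1 array. In the HFD group 10 mice ate a high-fat diet with 45 kcal% fat for 4 weeks, and in the MSXH group 10 mice ate the same diet containing 0.05% of "maple syrup extract high", as the labels name it. All 20 mice were therefore on high-fat feeding and were sampled on day 30 after a 16 h fast, so the comparison addresses the extract on top of high-fat feeding. A low-fat group and a group with 0.02% extract, which the protocol also names, were not analysed here.

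Carriers of the SLC25 family are small proteins, mostly of the inner mitochondrial membrane, that exchange nucleotides, phosphate, carboxylates, amino acids, acylcarnitines and cofactors between the cytosol and the matrix. In the liver they connect fatty acid oxidation, gluconeogenesis, the urea cycle and lipid synthesis, each of which has steps on both sides of that membrane. The uncoupling proteins belong to the same family, and Ucp1 is known for letting protons back into the matrix of brown fat mitochondria so that heat is released.

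The deposited values were taken as log2 levels, and they are compressed between arrays: the median SD of a probe set over the 20 mice was 9.34e-06. Differences are therefore not fold changes and are given as Hedges' g, the MSXH mean minus the HFD mean in units of the pooled SD, with a 95% interval. All 8 hepatocyte markers lay above the filter level, with means from 11.42 to 14.74. So did all 7 Kupffer cell and macrophage markers, whose summed level ran from 61.54 to 61.55 in both diets. Of these 7, 6 were lower and 1 higher in MSXH (median g = -0.168), 0 of them at an unadjusted p under 0.05 with limma. Of 4 lymphocyte markers 1 (Cd3e), of 4 adipocyte markers 1 (Retn), of 5 skeletal muscle markers 3 (Ckm, Acta1, Mb), of 4 red cell markers 2 (Alas2, Hba-a1) and of 4 testis markers 2 (Prm1, Odf1) did, and the rest of these markers lay below that level. The summed red cell markers came to 27.59 in every mouse at this rounding. With values this compressed, such narrow sums do not show that cell content was equal. In whole liver, fewer cells of a type and less RNA per cell cannot be told apart.

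The carriers did not separate the diets, and some of them had a large spread over the mice. Without repeat arrays of a mouse, variation between mice and variation between arrays cannot be told apart. With limma and Benjamini-Hochberg adjustment, 0 of 37 carriers changed (smallest adjusted p = 0.9998), where 0% of all genes tested did. At an unadjusted p under 0.05 there were 2 of the 37 carriers, both higher in MSXH, against 3.62% of all genes tested (1.88% higher and 1.74% lower). The values of the diets overlapped for all 46 genes. The share of all genes tested with such overlap was not computed, so this count does not single out the carriers. Of the 37 carriers, 10 were among the 10% of genes with the largest SD over the mice. Among them were Slc25a30, a relative of the uncoupling proteins, Slc25a51, the carrier that brings NAD+ into the matrix, and Slc25a15, the ornithine carrier of the urea cycle.

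The spread over the mice differed by several orders of magnitude within the family. The SD over 20 mice ran from 8.50e-07 for Slc25a3, the phosphate carrier that feeds ATP synthase, to 0.0803 for Slc25a30. The median SD of the 37 was 2.77e-05, and that of all genes tested was 1.48e-05. An SD of at least 1e-04 was found for 13 of the 37 carriers, a larger share than the 13.2% of all genes tested that reached it. Another 9 carriers lay between 1e-05 and 1e-04, and 15 lay below 1e-05. Since the compression may differ from gene to gene, the order of the SDs describes the deposited values and need not be that of the RNA.

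**Figure D1:**
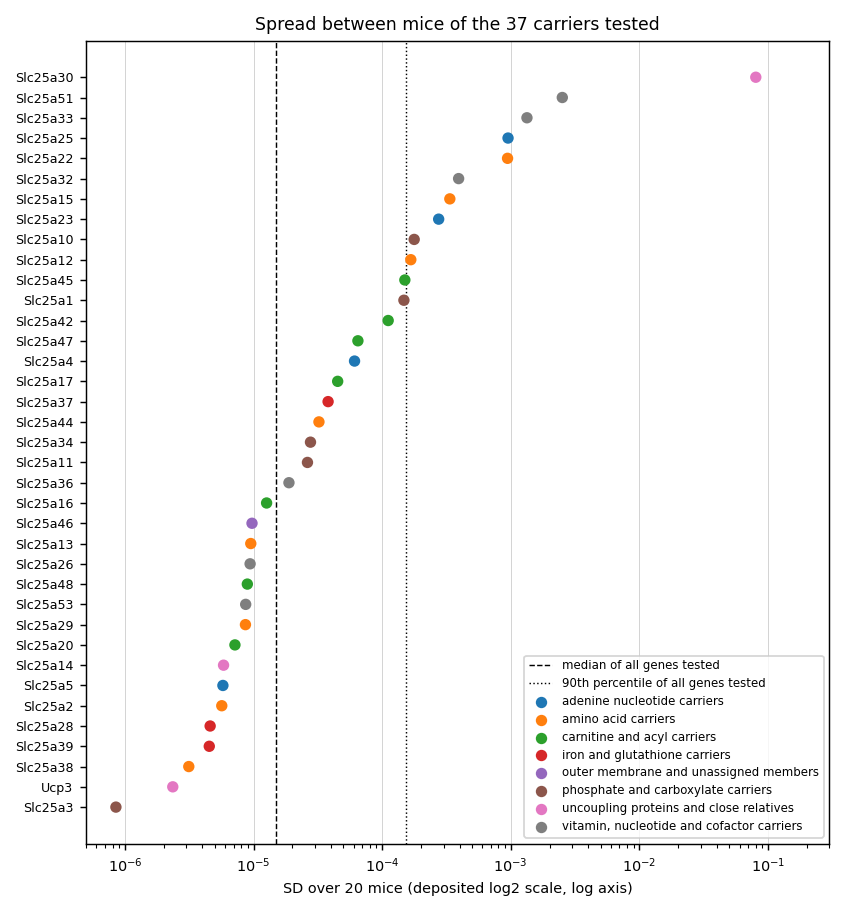
Standard deviation over the 20 mice of each of the 37 carriers tested, on the deposited log2 scale and a log axis, coloured by role, with the median of all 11728 genes tested (dashed) and the level that 10% of them exceed (dotted). Slc25a30 stands furthest right at 0.0803 and Slc25a3 furthest left at 8.50e-07, and 10 carriers lie beyond the dotted line.

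Slc25a30 had the 13th largest SD of all genes tested. This carrier was described in kidney mitochondria and is a close relative of Ucp1, with sulfur-containing anions among its substrates. Its level ran from 8.90 in the lowest to 9.18 in the highest HFD mouse, with a median of 9.03. In MSXH it ran from 8.96 to 9.17, with a median of 9.02. The mean difference was g = 0.0330 (95% interval -0.844 to 0.910, n = 10 per group), and the values of the diets overlapped. The widest gap between neighbouring mice lay between 9.05 and 9.13, with 6 mice above it and 14 below. The 6 mice were replicates 3, 4 and 5 of HFD and replicates 3, 4 and 5 of MSXH. What a replicate number stands for is not stated in the labels, which also give no array batch or date. The 4 probe sets of Slc25a30 above the filter level gave the same pattern, since the other 3 correlated with the chosen one at r = 0.997, 0.996 and 0.979 over the 20 mice.

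Slc25a51 followed among the carriers, with an SD of 0.00251 and rank 179 of 11728. In SDs from the mean of the 20 mice, HFD mice ran from -2.04 to 1.67 with a median of 0.17. MSXH mice ran from -1.23 to 1.48, also with a median of 0.17. Its other 2 probe sets tracked it at r = 0.964 and 0.954, with g = -0.0757 and -0.117. Slc25a33, a carrier of pyrimidine nucleotides, had an SD of 0.00134 (rank 275), with HFD mice from -1.92 to 1.49 SDs (median 0.17) and MSXH mice from -2.17 to 1.46 (median 0.19). For both genes the centre of the diets coincided within the spread (g = 0.0986 and 0.113).

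Slc25a25, which exchanges ATP-magnesium for phosphate under the control of calcium, had an SD of 9.52e-04 (rank 347). Its HFD mice ran from -1.10 to 1.83 SDs (median -0.04) and its MSXH mice from -1.64 to 1.04 (median -0.10). The 4 highest mice were 3 HFD mice and 1 MSXH mouse. Slc25a22, a glutamate carrier, had an SD of 9.43e-04 (rank 351), with HFD from -1.45 to 2.47 (median 0.18) and MSXH from -1.20 to 1.56 (median 0.01). Slc25a32, which carries folate and FAD, had an SD of 3.93e-04 (rank 635), with HFD from -2.17 to 1.36 (median 0.24) and MSXH from -0.81 to 1.46 (median -0.22). The diet differences of these 3 were g = -0.430, -0.134 and -0.0183, and all 3 intervals held 0.

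**Figure D2:**
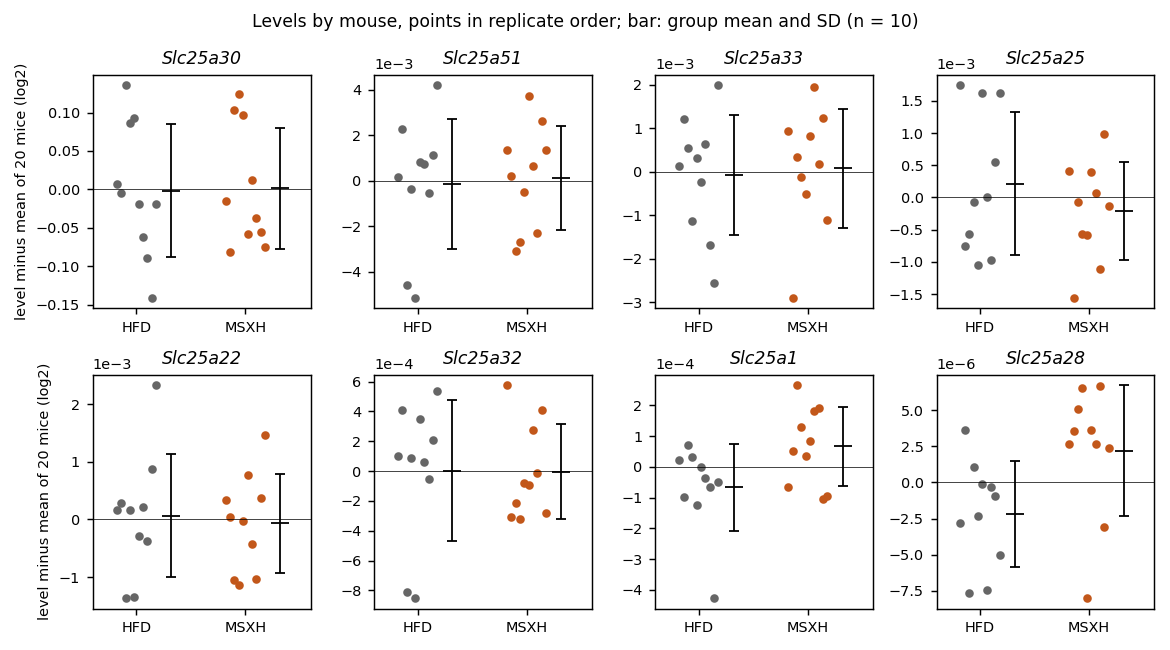
Level of 8 carriers in each mouse minus the mean of the 20 mice, in log2 units on the deposited scale with a separate axis for each gene; points stand in replicate order from left to right, and bars give the group mean and SD (n = 10). The HFD and MSXH points overlap in all 8 panels, and for Slc25a30 the 3 high points of each diet are replicates 3, 4 and 5.

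Where a carrier has several probe sets, the median agreement, taken over probe sets, was higher for carriers of larger spread. Carriers with many probe sets count more in these medians, and single carriers departed from this. Slc25a5, of small spread, had probe sets from r = 0.396 to 0.937, while a probe set of Slc25a25 stood at -0.105 and another at 0.830. There were 36 further probe sets above the filter level, of 18 carriers, and their median correlation with the chosen one was r = 0.634, with 15 at 0.8 or higher. For carriers with an SD over 1e-04 there were 11 such probe sets with a median r of 0.883. For carriers with a smaller SD there were 25 with a median of 0.524. The 14 further probe sets below the filter level had a median r of 0.0998, with 0 at 0.8 or higher. These correlations describe the 20 arrays that the probe sets share and were not tested.

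Promoter windows are shown for the members the results turn on: Slc25a30 and Slc25a33 for their spread, and Slc25a1 and Slc25a28 for their small diet p-values. The sequences are from RefSeq on mouse build GRCm38.p6, cover 250 bases before to 50 after the gene start, and are printed 5′ to 3′ on the gene's strand. The array files carry no genome build. Slc25a30 lies at chr14:75786988-75787287, Slc25a33 at chr4:149774218-149774517, Slc25a1 at chr16:17928170-17928469 and Slc25a28 at chr19:43674832-43675131, all on the minus strand. Capitals mark matches on either strand to CCAAT, to GGGCGG (a GC box) and to CACGTG (an E-box), which did not overlap in these windows.
Slc25a30: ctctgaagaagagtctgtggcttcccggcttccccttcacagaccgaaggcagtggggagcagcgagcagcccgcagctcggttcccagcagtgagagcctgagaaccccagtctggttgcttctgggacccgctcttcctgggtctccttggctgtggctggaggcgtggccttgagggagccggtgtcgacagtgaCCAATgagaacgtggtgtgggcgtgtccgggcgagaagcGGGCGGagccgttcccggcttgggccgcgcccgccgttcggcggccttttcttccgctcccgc
Slc25a33: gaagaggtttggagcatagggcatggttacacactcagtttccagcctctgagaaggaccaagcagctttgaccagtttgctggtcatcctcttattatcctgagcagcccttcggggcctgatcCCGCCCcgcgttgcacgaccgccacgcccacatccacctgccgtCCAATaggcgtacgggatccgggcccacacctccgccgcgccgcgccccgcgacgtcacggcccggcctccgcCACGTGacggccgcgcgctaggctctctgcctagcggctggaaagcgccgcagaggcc
Slc25a1: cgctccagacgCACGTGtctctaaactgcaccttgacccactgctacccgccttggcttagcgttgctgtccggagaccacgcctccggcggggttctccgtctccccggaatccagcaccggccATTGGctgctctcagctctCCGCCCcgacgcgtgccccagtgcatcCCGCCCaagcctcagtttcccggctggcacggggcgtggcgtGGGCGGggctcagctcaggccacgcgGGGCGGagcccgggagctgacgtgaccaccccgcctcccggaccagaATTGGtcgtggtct
Slc25a28: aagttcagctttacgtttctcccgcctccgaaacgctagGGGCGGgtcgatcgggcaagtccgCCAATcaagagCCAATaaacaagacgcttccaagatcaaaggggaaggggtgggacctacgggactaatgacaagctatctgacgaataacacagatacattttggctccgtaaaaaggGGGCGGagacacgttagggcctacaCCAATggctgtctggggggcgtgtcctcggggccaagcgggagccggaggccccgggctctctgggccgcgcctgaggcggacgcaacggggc
Windows were found for 36 of the 46 carriers, 45 in all because some genes have several starts. A GC box was in 82.2% of the carrier windows and in 35.7% of all 32851 windows of that length. CCAAT was in 46.7% against 37.4%, and CACGTG in 17.8% against 7.15%. The STAT palindrome TTCNNNGAA was in 6.67% against 8.30%, and the glucocorticoid receptor motif AGAACA in 6.67% against 19%. The windows printed hold neither of these last motifs, which says only that these letters are not in the windows. A match is a description and not a binding site.

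By role, the adenine nucleotide carriers ranged from well above the filter level to below it. Slc25a5, the widely expressed ADP/ATP exchanger, had a mean of 12.89 and an SD of 5.77e-06. Its heart and muscle counterpart Slc25a4 had a mean of 7.39, while the testis form Slc25a31 lay below the filter level at 5.56. The calcium-regulated ATP-magnesium carriers were Slc25a23, at 7.81, and Slc25a24, below the filter level at 6.42. Slc25a41, a form of the same subgroup, lay at 6.17. Levels of different probe sets are not on 1 scale of RNA amount, so only their place above or below the filter level is compared. Of the 4 tested members 2 were higher and 2 lower in MSXH (median g = 0.0994). Slc25a23 had HFD mice from -2.06 to 1.19 SDs (median -0.11) and MSXH mice from -1.03 to 1.58 (median 0.27), with g = 0.524 (95% interval -0.367 to 1.42).

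Of the uncoupling proteins, Ucp1 and Ucp3 were measured. Ucp1 lay below the filter level with a mean of 5.98, HFD mice from -1.70 to 1.14 SDs and MSXH mice from -2.86 to 1.49. Its medians were 0.09 and 0.14, and g was -0.0126 in the fit without the filter. Ucp3, the muscle form, lay at 6.54, just above the filter level, with HFD from -1.73 to 1.47 SDs (median 0.13), MSXH from -1.52 to 1.28 (median 0.03) and g = -0.0853 (95% interval -0.962 to 0.792). The sign of g for Ucp3 turned with its other probe set above the filter level (0.501). Among their relatives, Slc25a27, known from brain, lay below the filter level at 6.37. Slc25a14, another relative known from brain, had HFD from -2.08 to 1.12 SDs (median -0.34) and MSXH from -1.10 to 1.83 (median 0.37). Its difference of g = 0.719 (95% interval -0.186 to 1.62, unadjusted p = 0.114 with limma) did not pass.

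Of the phosphate and carboxylate carriers, 3 of 5 tested were higher and 2 lower in MSXH (median g = 0.0979). Slc25a1 exports citrate from mitochondria, which supplies cytosolic acetyl-CoA for fatty acid and sterol synthesis. Its HFD mice ran from -2.89 to 0.49 SDs (median -0.28) and its MSXH mice from -0.72 to 1.79 (median 0.46). Thus 7 of 10 MSXH mice exceeded the HFD median, and the groups overlapped. The difference was g = 0.958 (95% interval 0.0324 to 1.88), with an unadjusted p = 0.0348 and an adjusted p = 0.9998 from limma. Without the lowest mouse, HFD replicate 9, g was 0.874 and the unadjusted p was 0.0577. After quantile normalization g was 0.638. Slc25a10, the dicarboxylate carrier, had g = 0.113 and Slc25a11, the oxoglutarate carrier of the malate-aspartate shuttle, g = -0.0716. Slc25a3 had g = -0.540, but its other probe set above the filter level gave 0.196. Slc25a34, a member without a settled substrate, had g = 0.0979. Slc25a35 lay below the filter level.

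Of the iron and glutathione carriers, 2 of 3 tested were higher and 1 lower (median g = 0.340). Slc25a28, or mitoferrin-2, brings iron into mitochondria. Its HFD mice ran from -1.67 to 0.79 SDs (median -0.36) and its MSXH mice from -1.74 to 1.45 (median 0.67). In MSXH 8 of 10 mice exceeded the HFD median, and the lowest of the 20 was also an MSXH mouse. The difference was g = 1.03 (95% interval 0.0949 to 1.96), with an unadjusted p = 0.0325 and an adjusted p = 0.9998 from limma. Without that lowest mouse, MSXH replicate 5, g was 1.59 (unadjusted p = 0.00333). It was 0.380 with all arrays shifted to a common median and 0.131 after quantile normalization. The level of Slc25a28 correlated at r = 0.405 with the array-wide level, the mean standardised value of all genes tested, over the 20 mice; its part in the difference was not tested. Slc25a37, mitoferrin-1 of red cell precursors, had g = 0.340. Slc25a39, which imports glutathione, had g = -0.331, with HFD from -0.89 to 1.07 SDs (median 0.01) and MSXH from -2.17 to 1.68 (median -0.21). Of its 5 probe sets 3 shared this sign, and the others gave 0.307 and 0.0534. Its close relative Slc25a40 lay below the filter level.

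Of the amino acid carriers, 3 of 8 tested were higher and 5 lower (median g = -0.122). Slc25a15 passes ornithine into the matrix for the urea cycle. Its HFD mice ran from -1.11 to 1.91 SDs (median 0.35) and its MSXH mice from -1.75 to 0.99 (median 0.04). Its difference was g = -0.584 (95% interval -1.48 to 0.311), and both of its probe sets were lower. Slc25a44, a carrier of branched-chain amino acids, had HFD from -0.96 to 1.14 SDs (median 0.48) and MSXH from -1.70 to 1.86 (median -0.67). In MSXH 2 of 10 mice exceeded the HFD median. It had the most negative value of the family, g = -0.711 (95% interval -1.61 to 0.193, unadjusted p = 0.108 with limma), and all 3 of its probe sets were lower. Slc25a29, a carrier of basic amino acids, had HFD from -1.70 to 1.70 SDs (median 0.50), MSXH from -2.03 to 0.88 (median 0.01) and g = -0.416, while 2 of its 5 probe sets went the other way. The aspartate-glutamate carriers Slc25a12 and Slc25a13 had g = 0.365 and 0.129. Slc25a38, the glycine carrier needed for heme synthesis, had g = -0.110, and Slc25a2, a relative of the ornithine carrier, 0.309. The glutamate carrier Slc25a18 lay below the filter level.

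Of the carnitine and acyl carriers, all 7 were tested, 2 higher and 5 lower (median g = -0.0630). Slc25a20 exchanges acylcarnitine for carnitine and is required for long-chain fatty acid oxidation. Its HFD mice ran from -2.59 to 1.58 SDs (median 0.47), its MSXH mice from -1.14 to 1.03 (median -0.07), and g was -0.220 (95% interval -1.10 to 0.659). The other probe set of Slc25a20 gave 0.189. Slc25a47, a carrier found mainly in liver, had HFD from -1.49 to 2.58 SDs (median 0.08), MSXH from -1.10 to 1.84 (median -0.40) and g = -0.380. Slc25a45 had HFD from -2.19 to 1.06 SDs (median -0.03), MSXH from -1.04 to 2.19 (median 0.19) and g = 0.381. Slc25a42, which brings coenzyme A into the matrix, had g = 0.200, and Slc25a17, a peroxisomal member of the family, -0.00814. Slc25a16 and Slc25a48 had g = -0.216 and -0.0630, and the other probe set of Slc25a48 above the filter level gave 0.145. None of the 7 had an interval that left out 0.

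Of the vitamin, nucleotide and cofactor carriers, all 6 were tested, 4 higher and 2 lower (median g = 0.106). Beside Slc25a51, Slc25a33 and Slc25a32, the group holds Slc25a26, the carrier of S-adenosylmethionine, with g = -0.0702 (0.106 with its other probe set). It also holds Slc25a36, a pyrimidine nucleotide carrier, with g = 0.166. Slc25a53 had HFD mice from -2.66 to 1.33 SDs (median -0.07), MSXH mice from -0.60 to 1.62 (median -0.09) and g = 0.399. Its mean of 6.53 lay just above the filter level. Slc25a46, a member of the outer membrane that takes part in mitochondrial fission and fusion, had g = -0.276. Slc25a54, with no settled role, lay below the filter level at 5.75 and had g = 0.903 (95% interval -0.0171 to 1.82).

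**Figure D3:**
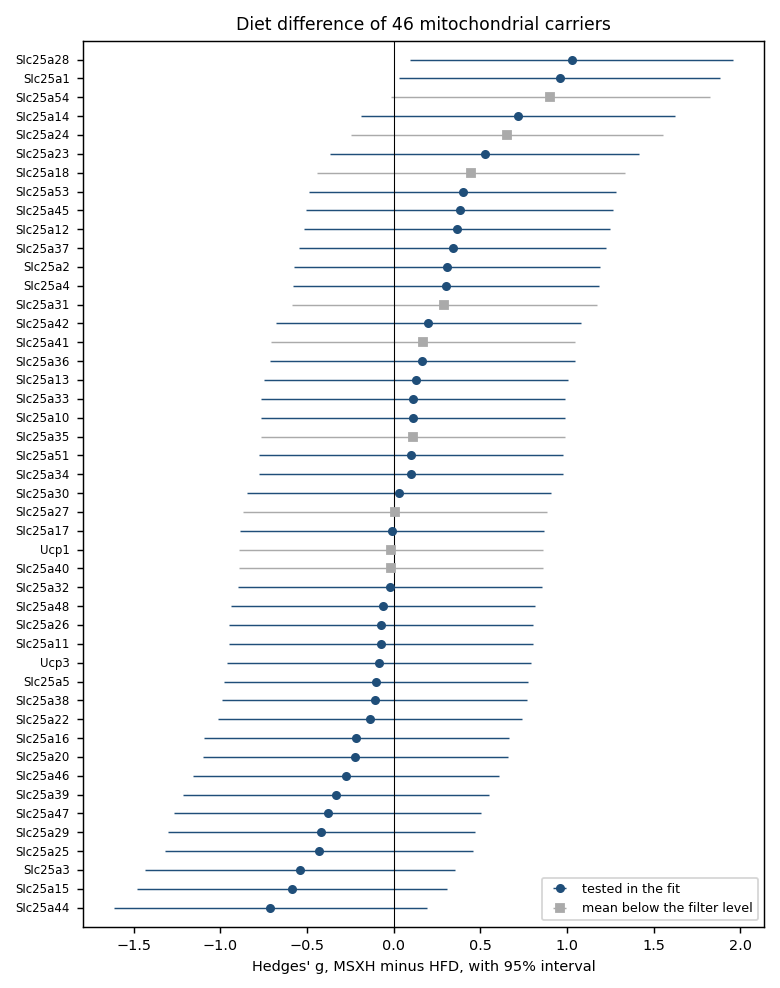
Diet difference of all 46 carriers as Hedges' g (MSXH minus HFD, in pooled SDs) with its 95% interval; circles are the 37 genes tested and squares the 9 below the filter level. The values run from -0.711 for Slc25a44 to 1.03 for Slc25a28, and only the intervals of Slc25a28 and Slc25a1 leave out 0.

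Over the 37 tested carriers 18 were higher and 19 lower in MSXH, with a median g of -0.00814. Over all genes tested 49.4% were higher and the median g was -0.00692. With all arrays shifted to a common median, 32 carriers were higher and 5 lower (median g = 0.290). That shift adds 1 offset per array to every gene. The share of all genes higher under it was not computed, so the count does not single out the carriers. After quantile normalization 17 of 30 were higher. The other carriers no longer varied between arrays after it and were left out. Other mitochondrial genes were described from lists by their counts. Of 17 other transporters of the mitochondrial membranes, such as the voltage-dependent anion channels and the calcium uniporter, 8 were higher and 9 lower (median g = -0.0547). Of 18 genes of protein import 5 were higher and 13 lower (median g = -0.107), and Timm17b, a subunit of the inner membrane translocase, had g = -1.36 with an unadjusted p = 0.00505. Of 14 regulators of mitochondrial genes, such as Ppara, Ppargc1a and Tfam, 9 were higher and 5 lower (median g = 0.134). Of 26 enzymes that work beside the carriers 10 were higher and 16 lower (median g = -0.0532), and Glud1, glutamate dehydrogenase, had g = 1.01 with an unadjusted p = 0.0318. With limma 0 genes of these lists passed the adjusted threshold.

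Between mice, several carriers were correlated over the 20 arrays, some of them less closely and some more closely within MSXH than within HFD. Among the 666 pairs of tested carriers the median size of the correlation was 0.226, against 0.209 over pairs of all genes tested. A size of at least 0.7 was found for 1.80% of the carrier pairs and for 0.801% of all pairs, 10 carrier pairs positive and 2 negative. These correlations are over 20 mice, share their arrays, were ranked after their values were seen and carry no p. The closest pair was Slc25a51 with Slc25a22 (r = 0.873, 0.906 within HFD and 0.841 within MSXH). Slc25a15 followed Slc25a22 (r = 0.841, 0.844 within HFD and 0.898 within MSXH). In the same order of values, it followed Slc25a3 (0.799, 0.846 and 0.722), Slc25a51 (0.760, 0.873 and 0.759) and Slc25a12 (0.720, 0.844 and 0.828). Slc25a46 with Slc25a12 gave 0.786 (0.831 within HFD and 0.853 within MSXH). Slc25a3 with Slc25a22 gave 0.767 (0.827 within HFD and 0.703 within MSXH). Slc25a51 with Slc25a32 gave 0.780, but 0.975 within HFD, 0.429 within MSXH and 0.581 without 2 mice. Slc25a11 with Slc25a22 gave 0.702, with 0.824 within HFD and 0.473 within MSXH. Slc25a17 with Slc25a4 gave 0.703, with 0.931 and 0.513. The differences between the diets in these r were not tested. The negative pairs were Slc25a15 with Slc25a1, the citrate exporter (-0.740, -0.618 within HFD and -0.809 within MSXH), and Slc25a39 with Slc25a36 (-0.715).

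**Figure D4:**
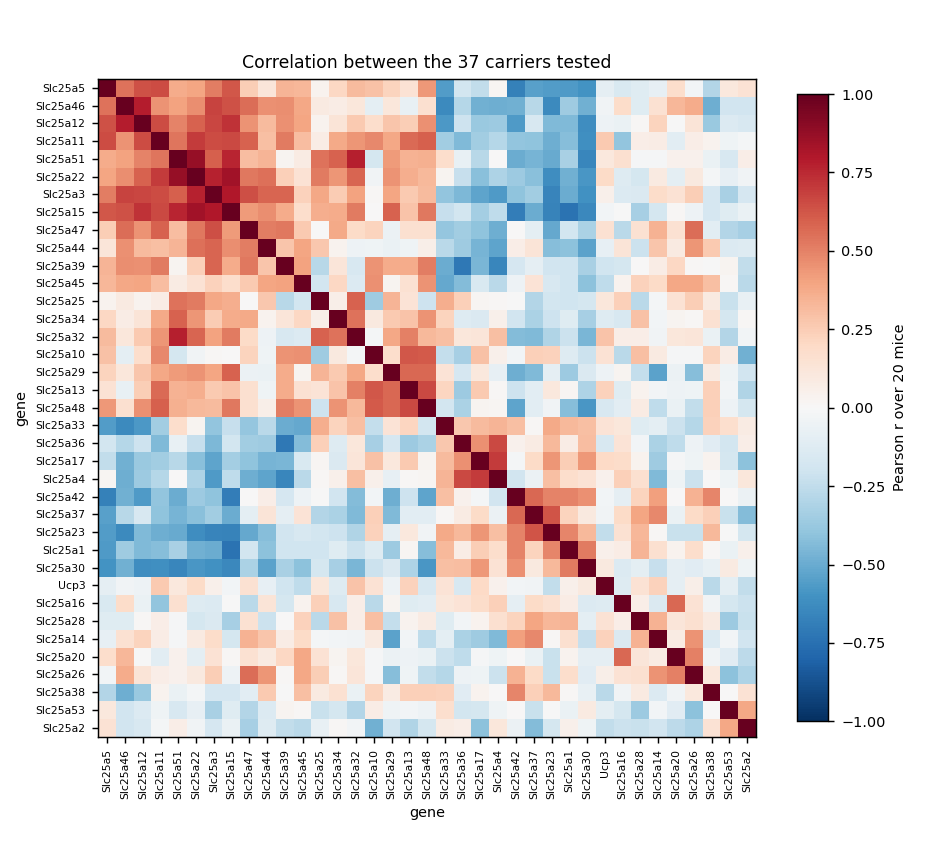
Pearson correlation over the 20 mice between each pair of the 37 carriers tested, ordered by similarity, from -1 (blue) to 1 (red). Slc25a51, Slc25a22, Slc25a3 and Slc25a15 form the darkest block near the upper left, with r up to 0.873, and Slc25a30 is blue against that block.

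Slc25a15 had the most followers, with 158 of the other genes tested at a correlation of at least 0.8 in size. Slc25a51 had 93, Slc25a46 92, Slc25a3 74 and Slc25a12 64, whereas 10 carriers had 0. The median was 7 for carriers and 3 for all genes tested. Beside these relations, the summed standardised Kupffer cell markers correlated with Slc25a15 at -0.542, with Slc25a22 at -0.510, with Slc25a51 at -0.388, with Slc25a33 at 0.513 and with Slc25a30 at 0.569. The red cell markers gave -0.442, -0.472, -0.348, 0.404 and 0.546 for the same genes. The testis markers, of a tissue that liver samples should not hold, gave 0.463, 0.336, 0.550, 0.119 and -0.371. The difference between the 3′ and 5′ actin control probe sets, a measure of RNA integrity, gave 0.291, 0.362, 0.233, -0.398 and -0.415. The part of these measures in the relations was not tested.

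For the 3 carriers with the largest spread, the genes that resembled them most were read from all 11727 others, so each r is the top of that many and only describes these mice. For Slc25a30, whose mice fell on either side of a gap, r is given within the 6 mice above it and the 14 below. By r over all 20 mice, the nearest gene was Onecut1, a hepatocyte transcription factor. It gave r = 0.948 above and 0.660 below the gap. Serpina4-ps1 came next with 0.690 and 0.788, then Socs2, a feedback inhibitor that growth hormone induces, with 0.354 and 0.727. Nrp1 followed with 0.490 and 0.695, and Mcm10 with 0.920 and 0.933. The genes most opposed to it were Kcnn2 (-0.463 and -0.824), Tcim (-0.911 and -0.540) and Spata2l (-0.522 and -0.643). Tsc22d3, which glucocorticoids induce and which was picked after its values were seen, gave -0.662 above and -0.220 below the gap. Slc25a51 against Slc25a30 gave -0.459 and 0.0807. The split was made on the values of Slc25a30 after they were seen and narrows its range, which can lower r. It did not do so for every gene: for Mcm10 r over all 20 mice was 0.864, below that on either side.

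Slc25a51 resembled Pptc7, a phosphatase of mitochondria, most (r = 0.935, Spearman's rho 0.950, 0.897 without the 2 mice most distant from its median). Next came Baiap2l1 (0.926), Tat (0.915), Trp53bp2 (0.915) and Slc7a2 (0.912), an arginine transporter of the cell surface. Tat, tyrosine aminotransferase, is a glucocorticoid-induced enzyme of amino acid breakdown, and Fkbp5, another glucocorticoid-induced gene picked after its values were seen, gave 0.902. In the opposite direction stood Osgin1 (-0.895), Arhgap29 (-0.879) and Adh4 (-0.860). For Slc25a33 the nearest genes were Idua (0.872), Nt5c3 (0.828), a nucleotidase of pyrimidine nucleotides, Pdp2 (0.80), Sesn2 (0.788) and Itih2 (0.786). The most opposed were Blcap (-0.797), Bloc1s5 (-0.787) and Leap2 (-0.777).

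Some further relations were picked after the values were seen. Slc25a25 resembled G6pc, the last enzyme of glucose release (r = 0.853, 0.845 within HFD and 0.857 within MSXH). It also resembled Ass1 of the urea cycle (0.835) and Igfbp1, which insulin represses (0.827). Slc25a15 followed the urea cycle enzymes Cps1 (0.860) and Asl (0.882), with r of at least 0.881 within each diet. With Ass1, another enzyme of the cycle, it gave 0.675 (0.792 within HFD and 0.509 within MSXH), and with Otc r was negative, as given with the tested pairs. Slc25a1 showed no such relation to Tm7sf2, a sterol reductase (0.258), to Srebf2, the regulator of sterol synthesis (0.437), or to Fasn, fatty acid synthase (0.110).

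**Figure D5:**
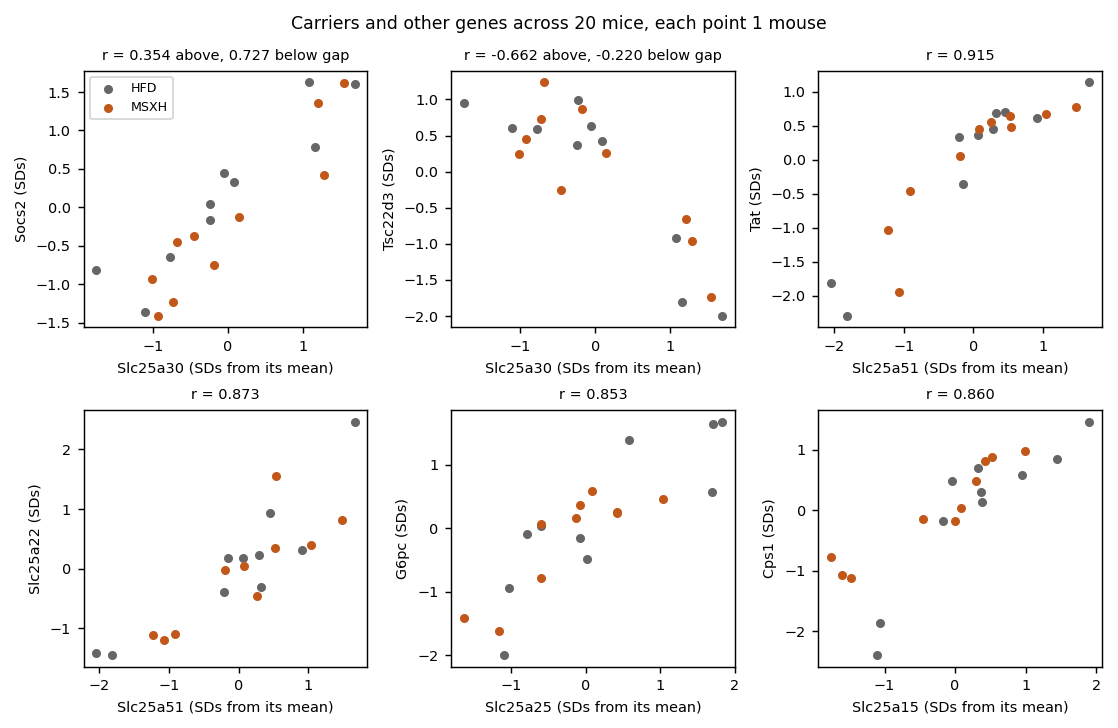
Standardised levels of 6 pairs of genes over the 20 mice, each point 1 mouse, grey for HFD and orange for MSXH, axes in SDs from the mean. For Slc25a30, r is given within the 6 mice above and the 14 below its gap; the other panels give r over 20 mice, from 0.853 for Slc25a25 with G6pc to 0.915 for Slc25a51 with Tat.

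Relations named from shared pathways were tested apart from these. Of 20 such pairs 18 could be measured, 3 of them with a gene below the filter level, and 0 passed an adjusted p of 0.05 over the 18 pairs (two-sided permutation tests of Pearson's r). At an unadjusted level 6 had an unadjusted p under 0.05. The highest was Slc25a1 with Acly, which splits the exported citrate in the cytosol (r = 0.560, permutation p = 0.0096, adjusted p = 0.0954, Spearman's rho 0.414 with permutation p = 0.0695). Leaving out the 2 mice most distant from the Slc25a1 median, which narrows its range, gave 0.204. With those mice included, r was 0.564 within HFD and 0.591 within MSXH. Slc25a25 with Ppargc1a, a coactivator of mitochondrial genes, gave 0.525 (permutation p = 0.0178, adjusted p = 0.0954, rho 0.519 with permutation p = 0.0211) and 0.556 without 2 mice. Slc25a23 with its relative Slc25a24 gave 0.542 (permutation p = 0.0140, adjusted p = 0.0954, rho 0.632 with permutation p = 0.00328). Slc25a5 with Slc25a3, which together supply ATP synthase with ADP and phosphate, gave 0.512 (adjusted p = 0.0954) and 0.248 without 2 mice.

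Slc25a15 with Otc, the matrix enzyme that uses its ornithine, had the opposite sign (r = -0.481, permutation p = 0.0322, adjusted p = 0.116, rho -0.511 with permutation p = 0.022), -0.420 within HFD and -0.648 within MSXH. Slc25a37 with Alas2, the heme synthesis enzyme of red cell precursors, gave 0.454 (adjusted p = 0.131) and 0.171 without 2 mice. Slc25a20 was not related past the threshold to Cpt1a (r = -0.0755, adjusted p = 0.846) or Cpt2 (0.220, adjusted p = 0.554), the enzymes on either side of it in fatty acid import. The ADP/ATP exchangers Slc25a4 and Slc25a5 gave 0.0191 and the mitoferrins Slc25a28 and Slc25a37 0.391, with adjusted p-values of 0.937 and 0.224. The remaining 8 pairs had r between -0.106 (Slc25a10 with Pck1) and 0.352 (Slc25a13 with Ass1).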

How the data were processed

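The deposited series table gives 1 value per probe set and array for 20 livers, 10 HFD and 10 MSXH. Per the labels' protocols, the authors made biotin-labelled RNA from 200 ng of total RNA with a 3′ IVT kit, which reads mostly 3′ ends. The deposited values were taken as log2 intensity levels from their range of 5.20 to 14.96. How background was corrected and how probes were normalized and summarised is not given in the sources used here. The array medians all rounded to 6.51. Signal over background is unknown, and the number of arrays limits precision.

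Of 45101 probe sets 64 were controls; the others named 1 gene in 34945 cases, several in 932 and none in 9160. Gene numbers of 34741 were found in RefSeq's table and 0 symbols changed. Genes below the median probe set mean were removed. The diet contrast was fitted in limma 3.58.1 under R 4.3.3 (lmFit, eBayes) over 11728 genes, Benjamini-Hochberg adjusted at 0.05, and the procedure was tested on simulated data. Correlations used 100000 permutations where a p is given (Python 3.11.15, scipy 1.17.1), adjusted over 18 pairs. What the replicate numbers stand for is not stated in the labels, and the main fit did not pair the mice. The arrays are labelled biological replicates, so each was counted as 1 mouse.

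Full values were given for the uncoupling proteins, the 6 carriers of largest SD and the 6 of smallest limma p in each direction. Of the pairs of shared pathways, some were given only by their range of r. For the 3 largest SDs, the 5 genes with the highest and the 3 with the lowest r were named. Lists were summarised by counts and medians, naming at most 4 members. Members, lists and this rule were chosen with earlier results of these data known. Alternatives changed the scaling, filter, probe set, variance model, array weights, test, replicate block and the arrays used. Corrections of the pairs, for the array-wide level and for actin integrity, were added after seeing the data. Figures were drawn with matplotlib 3.10.9.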

Additional observations from a re-analysis of the deposited data

Results flagged for a closer look

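Within a diet group of 10 mice, a mouse stood apart from the others in 4 of 92 sets of values (46 carriers in each diet), and chance alone marks about 5% of sets, or 4.6. The measure is the distance of the extreme mouse to its nearest neighbour divided by the whole range of the group. For Slc25a1, the citrate exporter, HFD replicate 9 lay below the other HFD mice, with a distance of 0.610 of the range. For Slc25a36, a pyrimidine nucleotide carrier, MSXH replicate 9 lay above the others with 0.496. For Ucp1, which lay below the filter level, MSXH replicate 9 lay below the others with 0.480. For Slc25a47, a carrier found mainly in liver, MSXH replicate 10 lay above the others with 0.479.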

How the results depend on the processing

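No carrier passed the adjusted threshold under any alternative of the diet comparison, and the smallest adjusted p among carriers was 0.797, with all arrays shifted to a common median. At an unadjusted p under 0.05 the 2 carriers became 0 under that shift and 1 with the Wilcoxon rank-sum test. After quantile normalization the count was 1 of the 30 carriers that still varied between arrays. It became 3 with array weights, 3 without the filter and 3 with each probe set tested on its own. Leaving out 1 array gave 0 to 3, with 0 without MSXH replicate 3, 4 or 8. Over all genes tested, same-numbered mice of the 2 diets correlated from -0.133 to 0.369, with 2 arrays closest to their own number. A measure over all genes does not show whether the number mattered for single genes, whose values are given at the end. The fit with the replicate block left 0 carriers past the adjusted threshold and 2 at the unadjusted one. That fit divides the difference by the SD left after the replicate block, not by the pooled SD. On that other scale Slc25a1 had g = 1.35 (unadjusted p = 0.00672 with limma), which is not comparable in size with the main fit. The fit on genes divided by their SD recovered 0 shifted genes in simulated data and could make no calls. Direction turned as follows. Shifting arrays to a common median, which adds 1 offset per array to every gene, gave g = 0.306 for Ucp3, 0.0300 for Slc25a32, 0.259 for Slc25a29 and 0.278 for Slc25a39; it put 14 pairs past the adjusted threshold in place of 0, with r = 0.934 for Slc25a20 with Cpt1a, -0.685 for Slc25a13 with Ass1 and 0.258 for Slc25a10 with Pck1. Quantile normalization gave 0.0645 for Slc25a32, -0.120 for Slc25a53 and 0.368 for Slc25a29. The probe set with the largest SD gave 0.501 for Ucp3, -0.0757 for Slc25a51 and 0.409 for Slc25a29, and r = 0.0535 for Slc25a20 with Cpt1a, -0.526 for Slc25a4 with Ckm and -0.0687 for Slc25a39 with Slc25a40. Array weights gave -0.0116 for Slc25a51. Centring on the diet means gave r = -0.0352 for Slc25a28 with Alas1. Removing the array-wide level put 1 pair, Slc25a23 with Slc25a24 (r = 0.641), past the threshold and gave -0.00557 for Slc25a4 with Slc25a5, and removing the actin measure gave -0.0207 for Slc25a39 with Slc25a40. Leaving out 1 array moved g from -0.289 to 0.0706 for Ucp3, -0.157 to 0.223 for Slc25a30, -0.119 to 0.295 for Slc25a51, -0.0873 to 0.396 for Slc25a33, -0.321 to 0.136 for Slc25a22 and -0.278 to 0.125 for Slc25a32. The cause of these turns was not tested. The carriers among the 10% with the largest SD numbered 10 with the pooled SD within diets and 10 with the probe set of the largest SD.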

Other observations

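Same-numbered mice of the 2 diets were set side by side for each carrier, over 10 pairs of mice, because Slc25a30 was high in replicates 3, 4 and 5 of both. This was done after its values were seen, and the correlations are descriptions without a p. Slc25a30 gave r = 0.767 (Spearman's rho 0.552), Slc25a25 0.672 (0.758), Slc25a22 0.637 (0.60), Slc25a1 0.547 (0.539) and Slc25a51 0.545 (0.709). Slc25a46 gave -0.692 and Slc25a2 -0.641. At 0.6 or higher stood 3 of 37 carriers, or 8.11%, and 4.74% of all genes tested. The median was 0.0100 for carriers and 0.0666 for all genes tested.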
